A study of Mus musculus with 8 samples.

Results

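Amino acid and peptide transporter genes were followed in 8 bulk RNA-seq libraries of mouse brain myeloid cells. The genes were the protein-coding rows of the deposited table whose symbols belong to the solute carrier families Slc3a, Slc6a, Slc7a, Slc15a, Slc36a, Slc38a and Slc43a. This rule took 60 genes of 38026 and used no measured value. The series asked how tumor-associated microglia and macrophages (TAMs) in medulloblastoma, a tumor of the cerebellum, differ from normal microglia. Of the libraries, 5 were TAMs from tumors of mice aged 68, 90, 61, 66 and 62 days (replicates 1 to 5, the order in which values are given) and 3 were microglia from the cerebral cortex of mice aged 60 days. All mice were of the C57BL/6 strain, and the labels do not say what drove the tumors. Cells were taken after papain digestion and myelin depletion by binding to magnetic beads against CD11b, an integrin subunit of microglia, macrophages, monocytes and granulocytes. The groups therefore differ in brain region and in age as well as in tumor. Nothing says whether a library came from 1 mouse or several, so p-values measure only the spread between these libraries.

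Amino acids do not cross membranes on their own, and solute carriers move them into cells, out of cells and out of lysosomes. Some carriers of the SLC7 family work only as a pair: a light chain (SLC7) carries the amino acid, and a heavy chain (SLC3) brings it to the surface. SLC38 carriers take up glutamine and other small neutral amino acids, and SLC15 carriers move short peptides and histidine. Some SLC36 carriers are driven by protons. SLC6 carriers use sodium and chloride to take up neurotransmitters, osmolytes and neutral amino acids. In the brain, transport across vessel walls, glutamine cycling by astrocytes and reuptake of transmitters each use particular members. In macrophages the lysosomal members return the amino acids of digested material to the cytosol.

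Values were deposited as TPM (transcripts per 1000000, which are per transcript length, so levels of different genes can be compared). Read numbers cannot be had from such values, so depth is unknown and counting error is not shown. The scale itself sat lower in TAMs: over the 15262 genes that reached 1 TPM in 3 or more libraries, which were the genes tested, the median log2 difference (TAM minus microglia) was -0.65. Each difference is therefore also given on rescaled TPM, where each library was scaled by the median of its gene ratios to the average library and that median was -0.04. All 10 listed markers of microglia and macrophages, Csf1r and Cx3cr1 among them, were read in both groups, with sums of 3883 to 9148 TPM in TAMs and 15833 to 18895 TPM in microglia. TAM replicate 2 had the lowest of these sums. On both scales 6 of the 10 were lower in TAMs and 1 was higher.

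On rescaled TPM, that is relative to other genes, the TAM libraries held more RNA of the SLC43 carriers Slc43a2 and Slc43a3 and of Slc36a4. They also held more of the heavy chain Slc3a2 with its light chain Slc7a7, and of the histidine carrier Slc15a3. Slc3a2, Slc7a7 and Slc15a3 were not called on TPM, where their ranges overlapped. The TAM libraries held less of the light chain Slc7a5 and of the glutamine carriers Slc38a2, Slc38a3 and Slc38a5. Also lower were the arginine carrier Slc7a1, the peptide carrier Slc15a2 and 6 SLC6 carriers. Markers of vessel cells and astrocytes were lower in the same libraries, and the part of other cell types in these levels was not tested. In mean TPM, Slc43a2 stood 2.05 times and Slc43a3 4.92 times higher in TAMs, while Slc7a5 stood 6.97 times, Slc38a2 4.49 times and Slc38a3 38.95 times lower. Of the 60 genes 37 had enough signal to be tested. Some of them, such as Slc38a11, Slc36a2, Slc6a11, Slc6a13, Slc6a17 and Slc6a20a, were under 1 TPM in every TAM library. The filter took these only because all 3 microglia libraries reached 1 TPM, so on TPM every TAM library had to lie below. These genes are part of the lower and non-overlapping counts that follow. On TPM (limma on log2(TPM + 1), Benjamini-Hochberg at 0.05 over all genes tested) 3 were higher and 25 lower in TAMs, against 8.22% and 56.4% of all tested genes (64.6% in either direction). On rescaled TPM 8 were higher and 15 lower, against 24.6% and 25.1% of all tested genes (49.7% in either direction). Called on both scales in the same direction were 3 higher and 15 lower genes, against 8.17% and 25.1% of all, and no gene was called in opposite directions. A further 10 genes were lower on TPM alone, 5 were higher on rescaled TPM alone and 4 were called on neither. Libraries did not overlap between the groups for 2 genes above and 21 below on TPM, against 7.97% and 49.7% of tested genes, and for 8 above and 15 below on rescaled TPM, against 24.1% and 24.6%. The median log2 difference of the 37 was -0.94 on TPM and -0.37 on rescaled TPM.

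**Figure D1:**
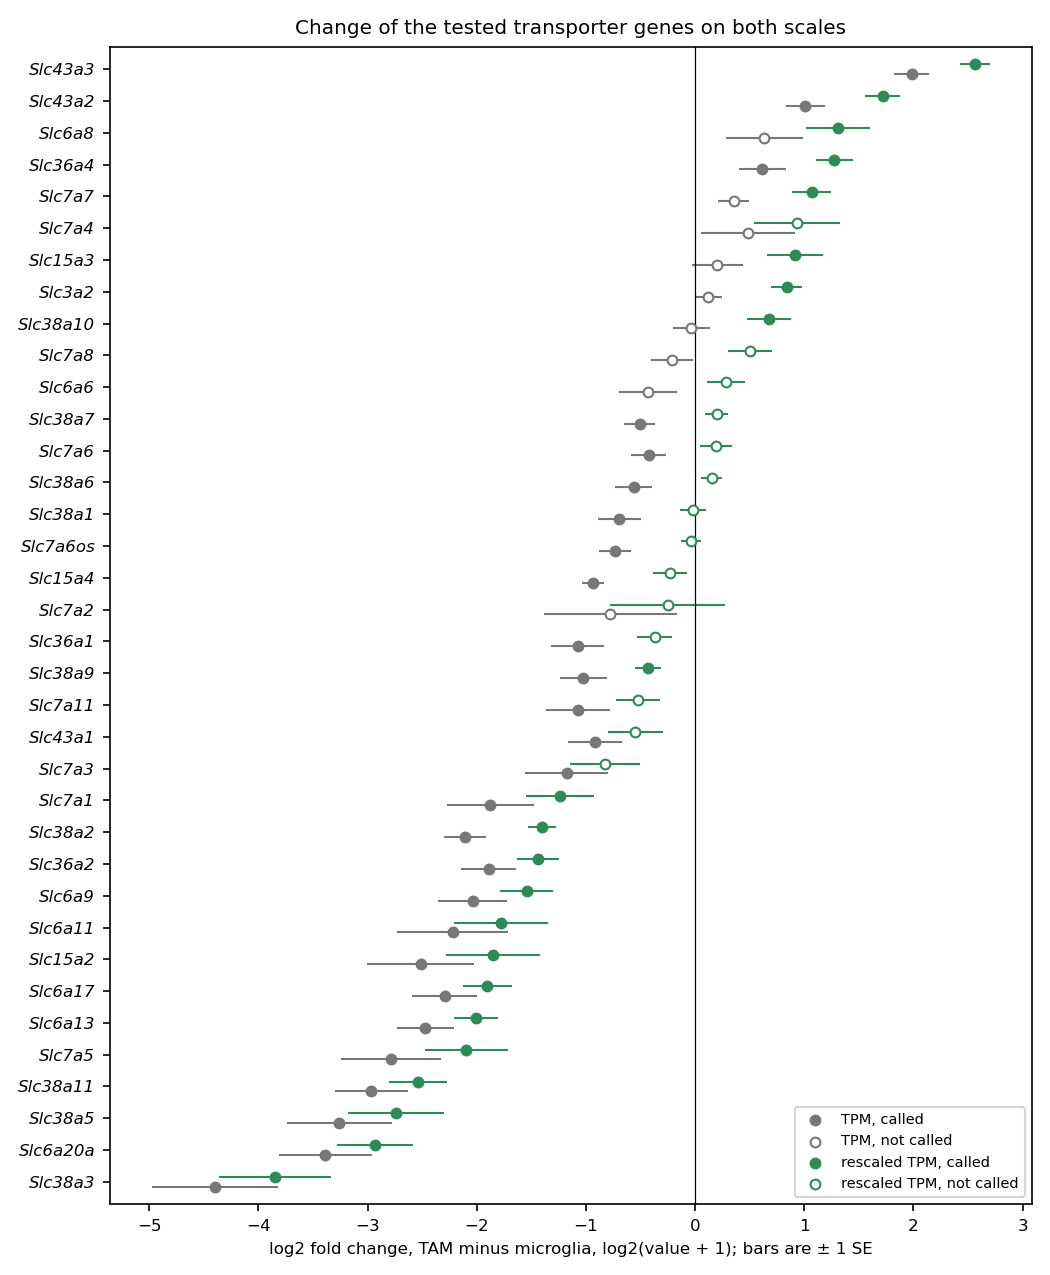
Log2 difference (x axis, TAM minus microglia, on log2(value + 1), bars ± 1 SE) of 36 of the 37 tested genes, on TPM in grey and on rescaled TPM in green. Filled points passed an adjusted p of 0.05. Slc43a3, Slc43a2 and Slc36a4 are filled on the right of 0 on both scales and 14 genes, down to Slc38a3, are filled on the left on both.

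The lower count depended on the microglia libraries. Without microglia replicate 2 or 3 it was 11 or 14 on TPM and 7 or 6 on rescaled TPM, where 29 of the 37 genes still reached 1 TPM in 3 libraries. With that filter at 2 libraries, a setting chosen after seeing the data, 19 and 21 genes were lower on TPM and 13 and 12 on rescaled TPM. The count of higher genes on TPM was 5 without TAM replicate 1. In the authors' deposited table of their DESeq2 comparison, 10 of the 37 were higher and 17 lower (p-values adjusted here by Benjamini-Hochberg), against 29% and 20.2% of the genes tested here. Over all 60 genes it called 13 higher and 21 lower, against 17.6% and 16% of the genes with a p-value.

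The heavy chain Slc3a2 (chromosome 19, 8706882 to 8723369 on mm10), also known as CD98 heavy chain, was the most abundant of the 60 genes in both groups. It measured 204, 191, 227, 273 and 247 TPM in TAM replicates 1 to 5 and 199, 218 and 207 TPM in microglia replicates 1 to 3. These ranges overlapped on TPM (log2 difference 0.12, SE 0.13, adjusted p = 0.4096), while on rescaled TPM all TAM libraries were above all microglia libraries and the gene was called higher (0.84, SE 0.14, adjusted p = 0.00218). The other heavy chain, Slc3a1, which serves kidney and gut, did not exceed 0.196 TPM in any library.

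Among the light chains, Slc7a7, which exchanges cationic for neutral amino acids, and Slc7a5, which carries large neutral amino acids such as leucine, received different calls. Slc7a7 measured 122, 119.6, 170.4, 156 and 158 TPM in the TAM replicates and 125, 106 and 106 TPM in the microglia replicates. The ranges overlapped slightly on TPM (log2 difference 0.35, SE 0.14, adjusted p = 0.0557), and the call passed without TAM replicate 1 (adjusted p = 0.0361) or 2 (0.0248). On rescaled TPM the ranges were separate and Slc7a7 was called higher (1.07, SE 0.18, adjusted p = 0.00206). Slc7a5 measured 10.4, 8.61, 5.82, 14.9 and 26.3 TPM in the TAM replicates and 50.2, 115 and 111 TPM in the microglia replicates, so that every TAM library was below every microglia library. It was lower on TPM (log2 difference -2.79, SE 0.46, adjusted p = 0.00124) and on rescaled TPM (-2.10, SE 0.38, adjusted p = 0.00282). TAM replicate 5 was the highest of the TAMs and microglia replicate 1 the lowest of the microglia.

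Slc7a8, a second carrier of large and small neutral amino acids, measured 86.6, 72.6, 103, 135 and 119 TPM in the TAM replicates and 122, 117 and 111 TPM in the microglia replicates. Its ranges overlapped and it was called on neither scale (log2 difference -0.21, SE 0.19, adjusted p = 0.349; rescaled 0.50, SE 0.20, adjusted p = 0.0724), although it passed on rescaled TPM without TAM replicate 2 (adjusted p = 0.0266) and in the authors' deposited table of the DESeq2 comparison (0.62 on the log2 scale, adjusted p = 0.0435). Slc7a6, which like Slc7a7 exchanges cationic amino acids, stood at 4.52 to 6.73 TPM in TAMs and 6.97 to 8.54 TPM in microglia. It was called lower on TPM (log2 difference -0.43, SE 0.16, adjusted p = 0.0452), a call lost when any 1 library other than TAM replicate 5 was left out (adjusted p between 0.0616 and 0.159), and its rescaled difference was 0.19.

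Slc7a11, the light chain of the cystine-glutamate exchanger that feeds glutathione synthesis, was low in both groups, at 1.44 to 2.77 TPM in TAMs and 2.73 to 7.79 TPM in microglia. It was lower on TPM (log2 difference -1.07, SE 0.29, adjusted p = 0.01201) but not on rescaled TPM (-0.52, SE 0.20, adjusted p = 0.0616). The TPM call was lost without microglia replicate 2 (adjusted p = 0.0586) or 3 (0.0537). The rescaled one was gained without microglia replicate 1 (0.00777).

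Slc7a11 and Slc7a7 are shown by their promoters because, of the tested genes with a promoter at hand, these 2 hold the letters of the amino acid response element, a composite site of the stress factor ATF4. Slc7a7 was called higher on rescaled TPM alone and Slc7a11 lower on TPM alone, so neither scale called both. The sequences are those of RefSeq on GRCm38.p6, 5′ to 3′ on the gene's strand. They end at or just before an annotated start of transcription, with matches to TGATGNAAN on either strand in capitals.
Slc7a11, chr3:50443614-50443863, minus strand: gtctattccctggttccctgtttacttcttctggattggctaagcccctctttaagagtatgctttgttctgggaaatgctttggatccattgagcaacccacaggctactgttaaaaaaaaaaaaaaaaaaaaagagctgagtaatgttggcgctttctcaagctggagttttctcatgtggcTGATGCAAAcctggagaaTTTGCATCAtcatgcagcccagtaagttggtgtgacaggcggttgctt
Slc7a7, chr14:54417946-54418194, minus strand: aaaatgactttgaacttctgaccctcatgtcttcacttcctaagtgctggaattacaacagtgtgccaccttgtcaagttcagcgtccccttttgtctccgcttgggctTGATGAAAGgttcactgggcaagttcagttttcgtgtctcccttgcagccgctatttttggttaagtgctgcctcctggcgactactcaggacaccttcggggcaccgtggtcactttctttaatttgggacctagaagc
In Slc7a11 the letters occur once in each orientation. Slc7a7 has several RefSeq promoters, and the printed one lies furthest upstream, outside the gene of the deposited table (end at 54417780). It has a match in the printed stretch and another, not shown, that begins at the last base before that start. The next Slc7a7 promoter shares the second match, and the remaining ones hold none. The letters were found in 3 of the 42 genes of this set with a promoter in the RefSeq table (4 of 63 promoters, 6.35%). Of all 32851 promoters of the same length, 300 bases, 3.95% held them. The third gene, Slc15a5, was not tested here. A match is a description of the letters and shows no binding.

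Shares within a library do not depend on the scaling. Of the summed TPM of the 6 light chains known to pair with Slc3a2 (Slc7a5, Slc7a6, Slc7a7, Slc7a8, Slc7a10 and Slc7a11), Slc7a7 made up 54.1, 57.6, 59.6, 49.6 and 50.6% in TAM replicates 1 to 5 and 40.5, 29.3 and 30.6% in microglia replicates 1 to 3. The share of Slc7a5 was 4.59, 4.15, 2.03, 4.74 and 8.42% in TAMs and 16.3, 31.7 and 31.9% in microglia. Both shares separated the groups without overlap, by a mean of 54.3 ± 4.32% (SD, n = 5) against 33.5 ± 6.16% (SD, n = 3) for Slc7a7 and of 4.79 ± 2.303% against 26.6 ± 8.96% for Slc7a5. Slc7a8 held 38.1 ± 3.14% in TAMs and 34.6 ± 4.28% in microglia, with overlapping ranges. The summed light chains per Slc3a2 were 1.17 ± 0.0834 in TAMs and 1.63 ± 0.0733 in microglia (ratio of TPM), again without overlap. The shares are parts of the same sum, so those of Slc7a5 and Slc7a7 are not independent. These shares were chosen after the data were seen and were not tested.

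**Figure D2:**
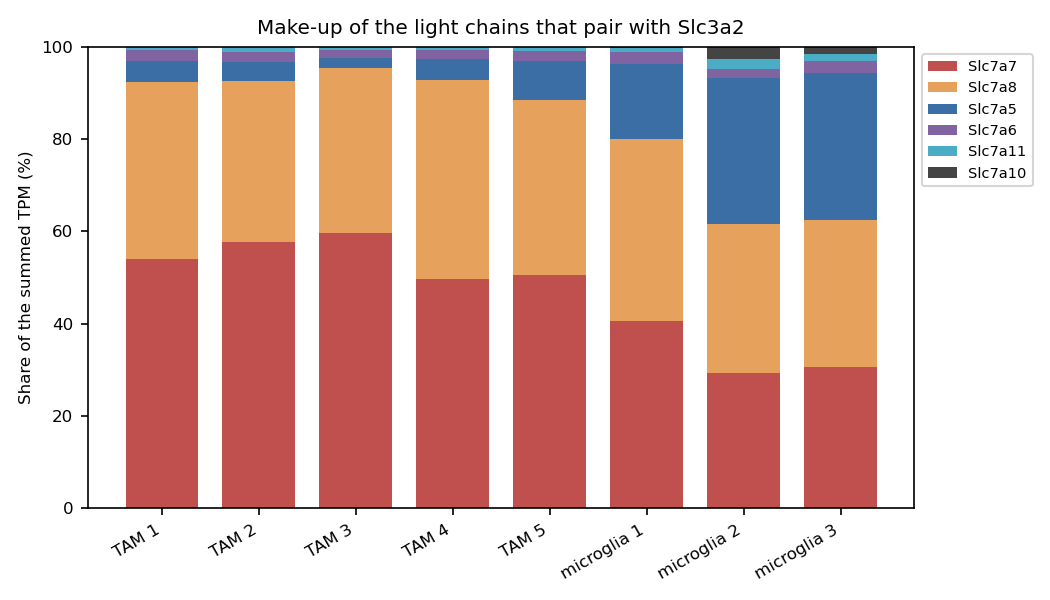
Share (y axis, percent of summed TPM) of each of the 6 light chains that pair with Slc3a2, in each of the 5 TAM and 3 microglia libraries (x axis). The Slc7a7 segment is taller in each TAM library than in any microglia library, and the Slc7a5 segment is shorter.

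Slc7a10, a light chain that exchanges small neutral amino acids including D-serine in astrocytes, did not reach 1 TPM in 3 libraries. It measured 0.0202, 0, 0.127, 0.184 and 0.0694 TPM in the TAM replicates and 0.607, 9.396 and 5.06 TPM in the microglia replicates.

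The cationic carriers take up arginine, lysine and ornithine without a heavy chain. Slc7a1, the widely expressed one, measured 2.66, 4.09, 3.03, 4.97 and 7.15 TPM in the TAM replicates and 8.72, 29.7 and 21.7 TPM in the microglia replicates, without overlap. Slc7a1 was lower on TPM (log2 difference -1.88, SE 0.40, adjusted p = 0.00405) and on rescaled TPM (-1.24, SE 0.31, adjusted p = 0.0117), the latter lost without microglia replicate 3 (adjusted p = 0.0505) or, with the filter at 2 libraries, replicate 2 (0.05299). Slc7a2, which supplies arginine to activated macrophages, ranged from 0.826 to 7.57 TPM in TAMs and from 1.32 to 9.71 TPM in microglia and was called on neither scale (adjusted p = 0.283 and 0.714). Slc7a3, a cationic carrier best known from neurons, ranged from 0.132 to 1.15 TPM in TAMs and from 0.651 to 4.300 TPM in microglia. It was called lower on TPM alone (log2 difference -1.17, adjusted p = 0.0247; rescaled -0.83, adjusted p = 0.0641). That call was lost without microglia replicate 2 (adjusted p = 0.0834) or 3 (0.111), with the filter at 2 libraries, and the rescaled one was gained without replicate 1 (0.0179). Slc7a4, a relative with no established substrate, was at 1.12 to 5.702 TPM in TAMs and 1.28 to 2.58 TPM in microglia. It was called on neither scale (adjusted p = 0.342 and 0.0826), except on rescaled TPM without TAM replicate 1 (0.0427) or 4 (0.0355).

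Of the 9 tested SLC38 genes, 5 were lower in TAMs on both scales, against 25.1% of all tested genes. Slc38a11 among these was under 1 TPM in every TAM library, so it passed the filter only through microglia. Slc38a2, the general uptake carrier for glutamine and alanine, measured 24.03, 33.5, 29.00, 33.2 and 35.1 TPM in the TAM replicates and 99.5, 169 and 148 TPM in the microglia replicates (log2 difference -2.11, SE 0.19, adjusted p = 0.000106; rescaled -1.40, SE 0.13, adjusted p = 0.000147). The groups were far apart and the call held without any 1 library on both scales. Slc38a3, which exports glutamine from astrocytes and carries it across brain vessels, measured 0.379, 0.416, 0.582, 1.51 and 3.65 TPM in the TAM replicates and 15.7, 72.8 and 64.5 TPM in the microglia replicates. It was lower on both scales (log2 difference -4.40, SE 0.58, adjusted p = 0.000468; rescaled -3.85, SE 0.51, adjusted p = 0.000705). Microglia replicate 1 was far below the other microglia libraries, and TAM replicate 5 was the highest among TAMs.

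Slc38a5, a relative of Slc38a3 found in brain vessels, measured 0.2103, 0.526, 0.202, 1.76 and 2.21 TPM in the TAM replicates and 7.58, 26.7 and 21.02 TPM in the microglia replicates (log2 difference -3.26, SE 0.48, adjusted p = 0.000782; rescaled -2.74, SE 0.44, adjusted p = 0.00158). Slc38a11, a little-studied member, measured 0.114, 0.105, 0.113, 0.103 and 0.453 TPM in the TAM replicates and 3.75, 11.1 and 12.3 TPM in the microglia replicates (log2 difference -2.97, SE 0.34, adjusted p = 0.000254; rescaled -2.54, SE 0.27, adjusted p = 0.000265). Both showed the same order of libraries as Slc38a3 at their extremes, with microglia replicate 1 the lowest microglia library and TAM replicate 5 the highest TAM library, and no overlap between groups. Slc38a9, the lysosomal arginine sensor that signals to the growth kinase mTORC1, measured 2.58, 2.703, 2.72, 2.58 and 4.39 TPM in the TAM replicates and 5.31, 8.43 and 7.63 TPM in the microglia replicates. This sensor gene was lower on TPM (log2 difference -1.02, SE 0.21, adjusted p = 0.00365) and, by less, on rescaled TPM (-0.43, SE 0.12, adjusted p = 0.0167). The rescaled call was lost without microglia replicate 2 (adjusted p = 0.0575) or 3 (0.0604).

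None of the other 4 tested SLC38 genes was called lower on rescaled TPM. Slc38a6 measured 98.04, 104, 115, 99.1 and 152 TPM in the TAM replicates and 150.4, 202 and 151 TPM in the microglia replicates. Slc38a7, a lysosomal glutamine exporter, measured 32.8, 30.2, 38.5, 34.7 and 44.2 TPM in the TAM replicates and 49.3, 58.03 and 47.00 TPM in the microglia replicates. Both were lower on TPM (log2 differences -0.56, SE 0.17, adjusted p = 0.0189, and -0.51, SE 0.14, adjusted p = 0.0128), and their rescaled differences were 0.15 and 0.20 without a call. The TPM calls were lost without microglia replicate 2 (adjusted p = 0.0891 and 0.0633). With the filter at 2 libraries Slc38a7 was called higher on rescaled TPM without microglia replicate 1 (0.0449).

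Slc38a10, a widely expressed member, measured 109, 80.9, 127, 144 and 121 TPM in the TAM replicates and 113, 117 and 121 TPM in the microglia replicates. On TPM its ranges overlapped (log2 difference -0.03, SE 0.17, adjusted p = 0.866), and on rescaled TPM it was higher (0.68, SE 0.20, adjusted p = 0.0223), a call lost without microglia replicate 2 (adjusted p = 0.114) or 3 (0.0876). Slc38a1, a glutamine carrier of neurons and lymphocytes, ranged from 8.71 to 15.1 TPM in TAMs and from 14.6 to 22.7 TPM in microglia. It was lower on TPM (log2 difference -0.69, adjusted p = 0.0154) and at -0.02 on rescaled TPM. The TPM call was lost without microglia replicate 2 (0.0718) or 3 (0.0595).

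**Figure D3:**
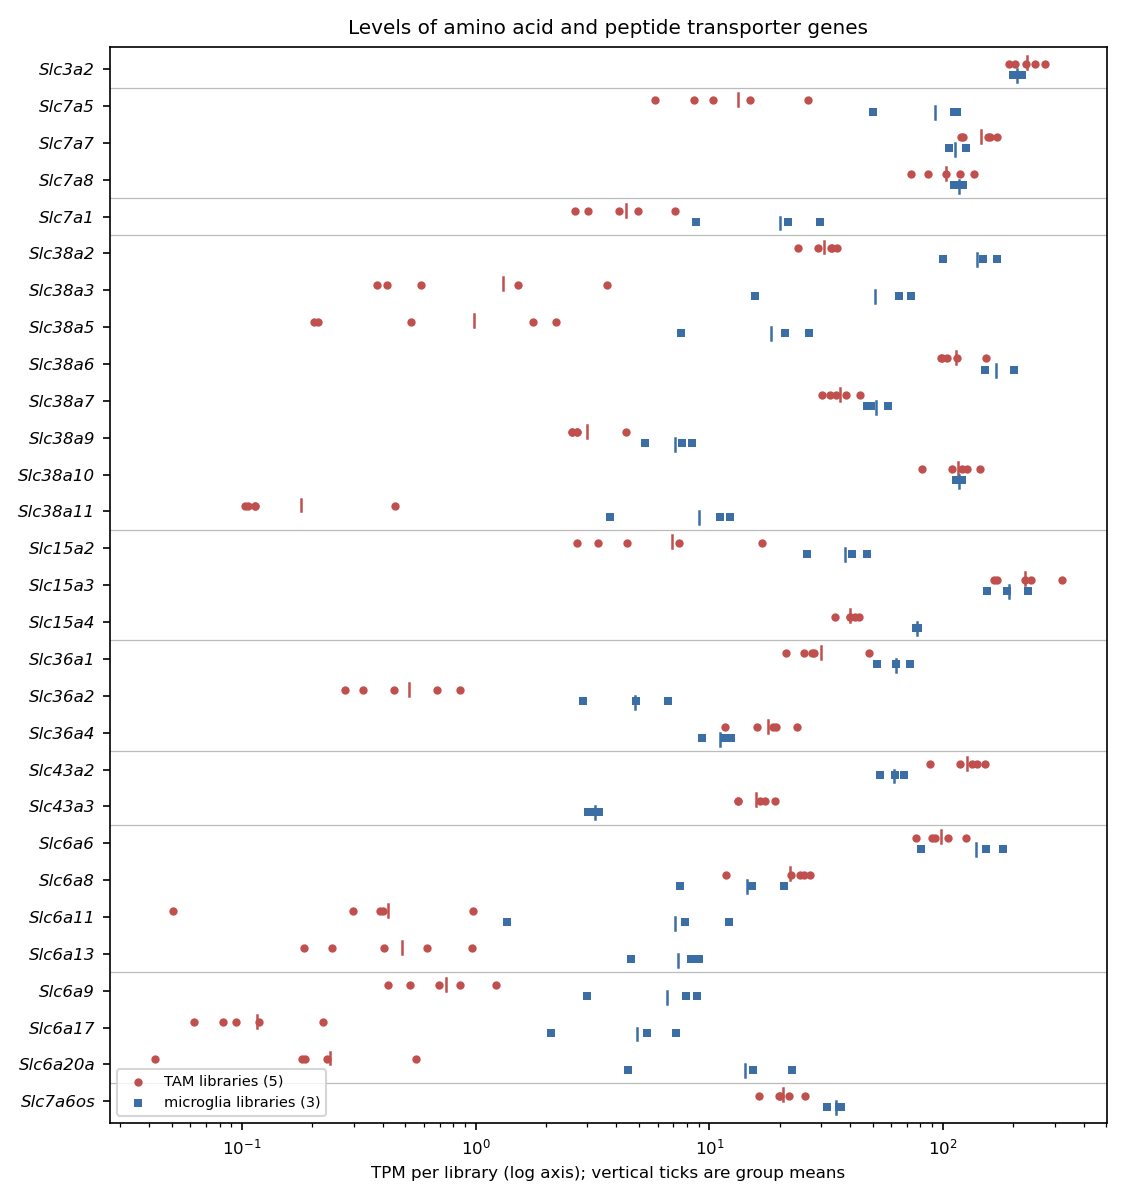
TPM per library (x axis, log axis) of the 29 genes described with a value in every library, grouped by family. Red points are the 5 TAM libraries, blue squares the 3 microglia libraries and vertical ticks the group means. Slc3a2 and Slc15a3 lie highest in both groups. Tested genes under 1 TPM in every TAM library, such as Slc38a11 and Slc6a17, lie above it in all 3 microglia libraries because the filter required it.

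The peptide and histidine carriers split by member. Slc15a3 and Slc15a4 sit in endolysosomes, where they export histidine and bacterial peptides, and Slc15a2 takes up small peptides at the cell surface. Slc15a3, the second most abundant gene of the 60 in both groups, measured 164, 170.2, 224, 322 and 238 TPM in the TAM replicates and 187, 154 and 232 TPM in the microglia replicates. The ranges overlapped on TPM (log2 difference 0.20, SE 0.23, adjusted p = 0.462) and were separate on rescaled TPM, where it was higher (0.92, SE 0.26, adjusted p = 0.0189). That call was lost without microglia replicate 2 (adjusted p = 0.1002). Slc15a4 measured 40.1, 34.3, 42.1, 43.6 and 39.8 TPM in the TAM replicates and 77.9, 76.5 and 77.1 TPM in the microglia replicates. Slc15a4 was lower on TPM (log2 difference -0.94, SE 0.10, adjusted p = 0.000187) and at -0.23 on rescaled TPM (adjusted p = 0.252), where the ranges overlapped.

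Slc15a2 measured 7.39, 2.72, 3.35, 4.43 and 16.7 TPM in the TAM replicates and 26.2, 47.3 and 40.8 TPM in the microglia replicates, without overlap. It was lower on TPM (log2 difference -2.51, SE 0.49, adjusted p = 0.00267) and on rescaled TPM (-1.85, SE 0.43, adjusted p = 0.00835), and these calls held without any 1 library. TAM replicate 5 had more than the other TAMs, as for Slc7a5.

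Of the SLC36 carriers, Slc36a1 exports small amino acids such as proline from lysosomes, and Slc36a4 carries proline and tryptophan and is linked to mTORC1. Slc36a4 measured 15.97, 11.6, 18.7, 19.2 and 23.7 TPM in the TAM replicates and 9.32, 11.6 and 12.4 TPM in the microglia replicates, with TAM replicate 2 inside the microglia range. It was higher on TPM (log2 difference 0.61, SE 0.22, adjusted p = 0.0344) and on rescaled TPM (1.28, SE 0.17, adjusted p = 0.000675), where the groups separated. The TPM call did not hold without TAM replicate 3 (adjusted p = 0.0695) or 4 (0.0699) or without microglia replicate 1 (0.109), 2 (0.0756) or 3 (0.0598).

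Slc36a1 measured 27.6, 21.3, 27.99, 25.5 and 48.4 TPM in the TAM replicates and 52.3, 72.5 and 63.1 TPM in the microglia replicates, lower on TPM (log2 difference -1.07, SE 0.24, adjusted p = 0.00524) but not on rescaled TPM (-0.37, SE 0.16, adjusted p = 0.0872), except without TAM replicate 5 (adjusted p = 0.0143). Its start site is shown because it alone among the 42 genes with a promoter holds TCACGTGA, the core of the site bound by lysosome factors of the MiT/TFE family, found in 0.974% of all promoters.
Slc36a1, chr11:55204325-55204354, plus strand, with that core and an overlapping match to TGACNNNGC in capitals: gggagccagcaTCACGTGACAGGGCccgga
The second pattern, the core of the antioxidant response element, was found in 8 of the 42 genes (15.9% of their promoters) and in 12.4% of all promoters. None of the 42 held GAAA followed by 2 bases of any kind and GAAA again, the interferon response pattern found in 3.44% of all. All patterns were read on both strands.

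Slc36a2, next to Slc36a1 on chromosome 11 with 19273 bases between them, measured 0.329, 0.276, 0.448, 0.681 and 0.859 TPM in the TAM replicates and 2.87, 6.64 and 4.84 TPM in the microglia replicates (log2 difference -1.89, SE 0.25, adjusted p = 0.000495; rescaled -1.44, SE 0.19, adjusted p = 0.000657). These neighbours thus differed in call on rescaled TPM, and the difference between them was not tested.

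Of the 3 genes higher on both scales, 2 were SLC43 genes. Slc43a2 (chromosome 11, 75531694 to 75577575 on mm10), a facilitated carrier of large neutral amino acids such as leucine and phenylalanine, measured 88.1, 139.8, 151, 118 and 133 TPM in the TAM replicates and 53.5, 68.3 and 62.2 TPM in the microglia replicates. All TAM libraries were above all microglia libraries on both scales (log2 difference 1.01, SE 0.18, adjusted p = 0.00167; rescaled 1.72, SE 0.16, adjusted p = 0.000155). Slc43a3 (chromosome 2, 84936579 to 84958509 on mm10), which belongs to the family by sequence but carries purine nucleobases, measured 13.3, 19.02, 16.5, 13.2 and 17.3 TPM in the TAM replicates and 3.03, 3.38 and 3.27 TPM in the microglia replicates (log2 difference 1.98, SE 0.16, adjusted p = 6.42e-05; rescaled 2.57, SE 0.14, adjusted p = 2.37e-05). Its spread within each group was small beside the gap between them. The calls of Slc43a2 and Slc43a3 held on both scales without any 1 library. Slc43a1, a second leucine carrier, lies 72985 bases from Slc43a3 on chromosome 2 and ranged from 0.114 to 1.21 TPM in TAMs and from 1.82 to 2.12 TPM in microglia. It was lower on TPM alone (log2 difference -0.92, SE 0.25, adjusted p = 0.0119; rescaled -0.55, SE 0.25, adjusted p = 0.102), a call lost without microglia replicate 2 (0.0548).

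The taurine and creatine carriers had the highest mean TPM of the SLC6 genes in both groups. Slc6a6, the taurine carrier, measured 76.4, 92.6, 105, 89.4 and 125 TPM in the TAM replicates and 80.1, 181 and 153 TPM in the microglia replicates. Its ranges overlapped and it was called on neither scale (log2 difference -0.43, SE 0.26, adjusted p = 0.175; rescaled 0.28, SE 0.17, adjusted p = 0.214), except lower on TPM without microglia replicate 1 (adjusted p = 0.00965). Slc6a8, the creatine carrier, measured 11.8, 22.3, 25.4, 27.04 and 24.4 TPM in the TAM replicates and 7.47, 20.8 and 15.1 TPM in the microglia replicates. It was higher on rescaled TPM (1.31, SE 0.29, adjusted p = 0.00692), while on TPM the groups overlapped (log2 difference 0.64, SE 0.35, adjusted p = 0.139) and the call passed without TAM replicate 1, the lowest TAM library (0.0414).

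The carriers of the transmitter GABA described here were low in TAMs. Slc6a11, of astrocytes, measured 0.3896, 0.0508, 0.298, 0.402 and 0.971 TPM in the TAM replicates and 1.36, 12.1 and 7.87 TPM in the microglia replicates (log2 difference -2.22, SE 0.51, adjusted p = 0.00545; rescaled -1.78, SE 0.43, adjusted p = 0.0103). Its rescaled call was lost without microglia replicate 3 with the filter at 2 libraries (adjusted p = 0.0511). Slc6a13, of vessels and meninges, measured 0.241, 0.621, 0.185, 0.403 and 0.967 TPM in the TAM replicates and 4.63, 9.04 and 8.31 TPM in the microglia replicates (log2 difference -2.47, SE 0.26, adjusted p = 0.000195; rescaled -2.004, SE 0.20, adjusted p = 0.000222). For Slc6a11 and Slc6a13 microglia replicate 1 was the lowest microglia library. Both genes were under 1 TPM in every TAM library and passed the filter only through microglia. That no TAM library reached a microglia library was therefore set by the filter on TPM.

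Of the 10 glycine, proline and neutral amino acid members 3 were tested. In these too microglia replicate 1 was the lowest microglia library, and every TAM library lay below it. Slc6a17 and Slc6a20a were under 1 TPM in every TAM library, so for them the filter required this on TPM. Slc6a9, the glial glycine carrier, measured 0.521, 0.694, 0.423, 0.855 and 1.22 TPM in the TAM replicates and 2.996, 8.85 and 7.96 TPM in the microglia replicates (log2 difference -2.04, SE 0.32, adjusted p = 0.000961; rescaled -1.54, SE 0.24, adjusted p = 0.00142). Slc6a17, a vesicle carrier of neurons, measured 0.0624, 0.118, 0.0831, 0.0945 and 0.223 TPM in the TAM replicates and 2.11, 7.21 and 5.42 TPM in the microglia replicates (log2 difference -2.30, SE 0.30, adjusted p = 0.000434; rescaled -1.90, SE 0.23, adjusted p = 0.000423). Slc6a20a, a proline carrier, measured 0.1800, 0.2302, 0.0424, 0.185 and 0.553 TPM in the TAM replicates and 4.49, 22.5 and 15.4 TPM in the microglia replicates (log2 difference -3.39, SE 0.43, adjusted p = 0.000381; rescaled -2.93, SE 0.35, adjusted p = 0.0004401). Its neighbour Slc6a20b, a close copy 3557 bases away on chromosome 9, peaked at 1.51 TPM, and reads shared by the copies could have been split between them. None of the 3 monoamine carriers (Slc6a2, Slc6a3 and Slc6a4), which take up noradrenaline, dopamine and serotonin and are no amino acid carriers, exceeded 0.168 TPM.

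Markers of other cell types differed between the same libraries. Of the endothelial markers 12 of 12 were lower in TAMs on both scales, Ly6c1, Cldn5 and Slco1c1 being the most abundant, with sums of 14.97 to 105 TPM in TAMs and 676 to 2254 TPM in microglia. The 8 mural markers, of which Vtn, Rgs5 and Acta2 were the most abundant, were all lower (sums of 4.69 to 23.6 and 339 to 868 TPM), as were 9 of 11 tested astrocyte markers, Gfap, Aldoc and Slc1a2 among them (14.5 to 29.4 and 74.4 to 712 TPM). Lower on both scales were also 5 of 7 tested meningeal fibroblast markers, Mgp, Igf2 and Dcn among them (4.53 to 34.7 and 177 to 520.0 TPM), 6 of 7 oligodendrocyte markers, Mbp and Mobp among them (45.7 to 56.99 and 150.4 to 802 TPM) and 3 of 6 neuron markers, Camk2a and Stmn2 among them, with 1 higher (8.84 to 31.9 and 27.8 to 123 TPM). The abundant oligodendrocyte marker Cnp (log2 difference -0.61; rescaled 0.09) and the neuron marker Map2 (-1.73; rescaled -1.19) were lower on TPM alone. Without any 1 microglia library 5 mural markers were tested, of which 4 or 5 were lower on each scale, and without microglia replicate 2 there were 3 of 5 oligodendrocyte markers lower on rescaled TPM. No neuron marker was higher on TPM without microglia replicate 1 or 3, and 2 were without TAM replicate 2. Of these lists the oligodendrocyte gene Opalin alone was at 0 in all TAM libraries. In bulk libraries fewer cells of a type and less RNA per cell cannot be told apart.

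The sums of endothelial, mural, meningeal fibroblast, astrocyte and neuron markers were each lowest in microglia replicate 1 among microglia and highest in TAM replicate 5 among TAMs. The oligodendrocyte sum was lowest in microglia replicate 1 too, but among TAMs it was highest in replicate 4 (56.99 TPM, against 49.2 TPM in replicate 5). Of the 15 transporter genes lower on both scales, microglia replicate 1 was the lowest microglia library for 15 on TPM and on rescaled TPM, against 74.9% and 39.7% of all tested genes. TAM replicate 5 was the highest TAM library for 14 of them on TPM and 11 on rescaled TPM, against 59.4% and 26.5%. The mean of microglia replicates 2 and 3 exceeded replicate 1 by 1.51 times or more (lowest for Slc38a9), with a median of 2.95 times against 1.25 times over all tested genes. The ratio was 1.597 for Slc38a2 and 1.68 for Slc15a2, but 1.099 for Slc43a3 and 0.851 for Slc7a7. The part of other cell types in the lower transporter levels was not tested.

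**Figure D4:**
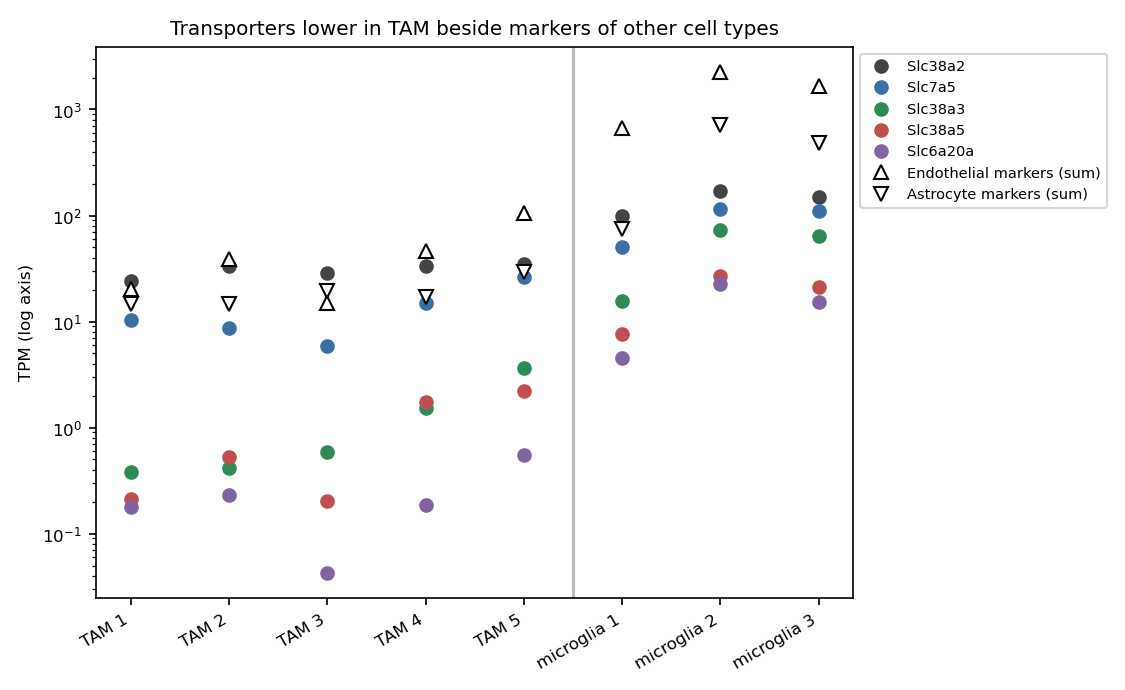
TPM (y axis, log axis) in each library (x axis) of 5 transporter genes lower in TAMs on both scales (coloured points) and the summed TPM of 12 endothelial and 12 astrocyte markers (open triangles). Both marker sums and all 5 genes are lower in microglia replicate 1 than in microglia replicates 2 and 3, and lower still in every TAM library.

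Neutrophils carry CD11b too and can be captured by the beads. Neutrophil marker sums were 247 to 664 TPM in TAMs, highest in TAM replicate 2, and 433 to 480.3 TPM in microglia. In microglia most of the sum was Csf3r (mean 410.3 TPM), so there it mainly gives the level of this gene. The sums alone therefore do not rank the groups by neutrophil content. The most abundant were Csf3r, S100a9 (101 ± 86.8 TPM in TAMs, 11.02 ± 4.41 TPM in microglia, SD) and S100a8. On both scales 4 of 8 tested were higher, S100a8 and S100a9 among them, and 2 were lower on TPM alone. These were Csf3r (171 ± 45.6 TPM in TAMs, 410.3 ± 31.9 TPM in microglia, SD; log2 difference -1.31; rescaled -0.59) and Mmp9 (-1.07; rescaled -0.41). Without any 1 library other than TAM replicate 2 there was 1 lower on TPM, and without TAM replicate 1 or 2 there was 1 lower on rescaled TPM. Lymphocyte sums were 14.5 to 63.1 and 12.7 to 16.4 TPM, with Cd79b, Jchain and Cd3d the most abundant. Of 5 tested 1, Jchain, was higher on both scales and Cd3d was lower on TPM alone (log2 difference -1.05). None was higher on either scale without any 1 microglia library or without TAM replicate 1, nor on TPM without TAM replicate 5, and 2 were higher on TPM without TAM replicate 2. Tumor and granule lineage markers, with Zic1, Zic2 and Barhl1 the most abundant, summed to 76.97 TPM in TAM replicate 5, to 6.56 to 17.3 TPM in the other TAMs and to 15.01 to 55.1 TPM in microglia, with 4 of 9 higher and 2 lower on both scales. Without microglia replicate 1, 2 or 3 there was 1 higher on TPM, and without TAM replicate 1 or 4 there were 2. The part of these cells in the transporter levels was not tested.

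Of the 23 genes not tested, 17 stayed under 1 TPM in every library, and Slc7a12 was listed at 0 throughout. The other 6 (Slc7a10, Slc7a14, Slc7a15, Slc6a12, Slc6a15 and Slc6a20b) reached 1 TPM in at most 2 libraries. Slc7a3 was just inside the limit, with a third-highest value of 1.15 TPM, and Slc7a15 just outside, with 0.910 TPM. Slc7a6os matched the rule by its symbol but is a neighbour of Slc7a6, 1734 bases away, and encodes no transporter. It measured 16.2, 21.9, 19.8, 19.9 and 25.5 TPM in the TAM replicates and 31.8, 36.4 and 35.8 TPM in the microglia replicates, lower on TPM (log2 difference -0.73, SE 0.15, adjusted p = 0.00301) and at -0.04 on rescaled TPM.

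By family, the sum of all 60 genes was 1177, 1211, 1483, 1610.3 and 1663 TPM in TAM replicates 1 to 5 and 1533, 2080.3 and 1945 TPM in microglia, or 0.1995 ± 0.0208% and 0.231 ± 0.0241% of the TPM of coding genes, with overlapping ranges. The SLC43 genes made up 10.1% of that sum on average in TAMs and 3.61% in microglia. The SLC38 genes made up 22.03% and 31.2%, and the light chains 18.8% and 18.5%. The SLC43 and SLC38 shares are given as a description with no test.

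Other genes that carry, sense or use amino acids were counted on the same fits, to be read against 8.22% higher and 56.4% lower of all tested genes on TPM and 24.6% and 25.1% on rescaled TPM. In the SLC1 family of glutamate and neutral carriers 3 of 5 tested genes were lower on both scales and none higher (median log2 difference -2.04; rescaled -1.58). They were Slc1a2 (0.433 ± 0.352 TPM in TAMs and 40.8 ± 32.1 TPM in microglia, SD), the main glutamate carrier of astrocytes, Slc1a1 and Slc1a4. Slc1a2 is also on the astrocyte list. Of 13 tested genes of a list of mitochondrial and lysosomal carriers, which also holds the surface exporter Slc16a10, 2 were higher and 4 lower on TPM, and 7 higher and 2 lower on rescaled TPM (median log2 difference -0.36 and 0.32). Without microglia replicate 2 or 3 these became 1 higher and 1 lower, and 3 and 0. Without microglia replicate 1 or TAM replicate 3 there was also 1 higher on TPM, and without microglia replicate 1 or any 1 of TAM replicates 1 to 4 there was 1 lower on rescaled TPM. Slc16a10, 1 of the 2 higher on TPM, which exports aromatic amino acids, was higher on both scales (0.83 and 1.45), the mitochondrial carriers Slc25a29 (-1.40 and -0.97) and Slc25a18 (-2.31 and -1.75) were lower on both, and the lysosomal cystine exporter Ctns was lower on TPM alone (-0.69 and 0.01).

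Of 20 tested genes of the amino acid response, 1 was higher and 6 lower on TPM (5% and 30%), and 8 higher and 3 lower on rescaled TPM (40% and 15%), with medians of -0.40 and 0.19. Without any 1 microglia library 5 were higher on rescaled TPM, without microglia replicate 3 there was 1 lower on rescaled TPM, and without TAM replicate 2 there were 9 lower on TPM. The 1 higher on both scales was Psat1, an enzyme of serine synthesis, which averaged 78.3 ± 29.05 TPM over TAMs and 14.3 ± 4.76 TPM over microglia (SD; log2 difference 2.32, SE 0.39, adjusted p = 0.00135). Atf4 itself had log2 differences of -0.92 on TPM and -0.20, without a call, on rescaled TPM. The tRNA synthetase gene Cars was lower on both scales (-1.43 and -0.74) and Nars on TPM alone (-0.86 and -0.15).

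Genes of amino acid sensing by mTORC1 were 5 higher and 17 lower of 31 on TPM, and 12 higher and 3 lower on rescaled TPM (median log2 difference -0.45 and 0.18). Without microglia replicate 2 or 3 the 17 became 10 or 11, and the 3 lower on rescaled TPM became 1 without microglia replicate 3 and 5 without TAM replicate 5. Rragd, which encodes a RagD GTPase, averaged 6.89 ± 2.38 TPM over TAMs and 1.32 ± 0.386 TPM over microglia (SD) and was higher on both scales (1.72 and 2.19). The arginine sensor Castor1 (listed as Gatsl3) was lower on both (-1.91 and -1.22), as was the mTORC1 subunit Rptor (-1.47 and -0.77), whereas Tsc2, an mTORC1 inhibitor, was lower on TPM alone (-0.77 and -0.09). Of 11 genes of glutathione turnover, 2 were higher and 2 lower on TPM, and 5 higher and 1 lower on rescaled TPM (median log2 difference -0.05 and 0.61). Without microglia replicate 1 there were 1 higher and 4 lower on TPM, and without replicate 2 or 3 there were 1 and 1. There was also 1 higher on TPM without TAM replicate 3 or 4, and there were 2 lower on rescaled TPM without microglia replicate 1. Gsr, glutathione reductase (0.67 and 1.34), and the peptidase Lap3 (0.91 and 1.62) were higher on both scales and the peptidase Ggt5 lower (-2.11 and -1.45). Gclc, the first enzyme of glutathione synthesis, was lower on TPM alone (-0.55 and 0.13).

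Of 25 tested enzymes of amino acid metabolism, 5 were higher and 14 lower on TPM, and 9 higher and 7 lower on rescaled TPM (median log2 difference -0.64 and 0.06). Glul, glutamine synthetase, averaged 563 ± 126 TPM over TAMs and 2490.0 ± 418 TPM over microglia (SD; log2 difference -2.16, SE 0.20, adjusted p = 0.0001104; rescaled -1.44). Lower on both scales were also the branched-chain enzymes Bckdha (-1.19 and -0.48) and Bcat1 (-2.13 and -1.61) and the taurine synthesis enzyme Csad (-1.82 and -1.13). Glul is abundant in astrocytes as well as in microglia, and the part of astrocyte RNA in its level was not tested. The split of higher against lower genes thus turned with the scale in some of these lists. They were the carriers of mitochondria and lysosomes, the amino acid response, mTORC1 sensing and amino acid metabolism. Over all tested genes the split moved the same way, from 8.22% higher and 56.4% lower on TPM to 24.6% and 25.1% on rescaled TPM.

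**Figure D5:**
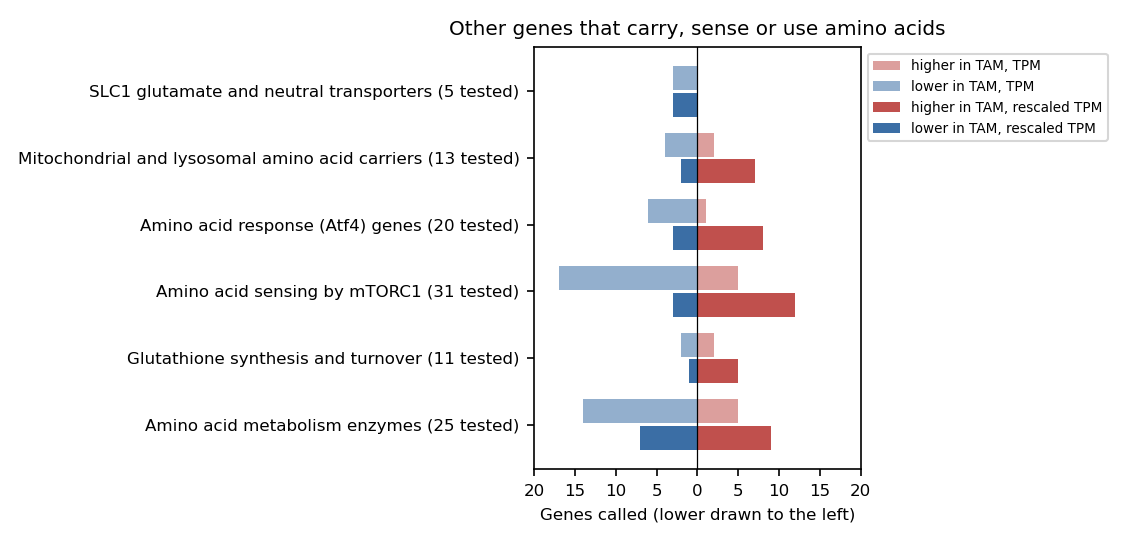
Genes called higher (red, to the right) or lower (blue, to the left) in TAMs at an adjusted p of 0.05 (x axis, number of genes) in 6 lists of genes that carry, sense or use amino acids (y axis), on TPM (pale) and on rescaled TPM (dark). The mTORC1 list runs from 17 lower and 5 higher on TPM to 3 lower and 12 higher on rescaled TPM, while the SLC1 list has 3 lower on both.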

How the data were processed

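The authors deposited TPM per library (per the file headers), with library sums of 990422 to 997832. The deposited table also holds the authors' DESeq2 mean signal, log2 fold change and unadjusted p-value, per the file headers. The submitters' processing notes name mm10, FastQC and DESeq2, but give no aligner, quantifier, annotation release or strandedness. Another 3 columns have no name and were left aside. Symbols and coordinates are those of the table, and all 60 genes overlapped the same gene of GENCODE M21.

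Genes reaching 1 TPM in 3 or more libraries were tested with limma 3.58.1 (R 4.3.3) with an intensity trend on log2(TPM + 1), all 8 libraries in 1 fit, without covariates, and adjusted by Benjamini-Hochberg over all genes tested. On this scale a fold change understates the change of low genes. The fit was tested on simulated data. A value in every library is given for genes called alike on both scales or at a mean of 20 TPM or more in a group. From each list of amino acid genes up to 4 called genes of lowest p are named, and from each marker list the 3 of highest mean TPM. Of the genes this names, 2 are not reported here by name or value, though counts and sums include them. Genes, lists and tests were chosen with earlier results of these data known. Alternatives covered the scaling, filter, pseudocount, a replicate block, each library left out and the authors' table.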

Additional observations from a re-analysis of the deposited data

Results flagged for a closer look

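TAM replicate 5 lay far above the other TAM libraries for 5 of the 37 tested genes, by the gap to the nearest library against the range of the group (Dixon's test at 95%, which chance passes in about 1 group in 20). The values were 48.4 TPM against 21.3 to 28.0 for Slc36a1, 4.39 against 2.58 to 2.72 for Slc38a9, 0.453 against 0.103 to 0.114 for Slc38a11, 7.57 against 0.826 to 2.43 for Slc7a2 and 1.15 against 0.132 to 0.318 for Slc7a3. The same library had the highest sums of endothelial and of tumor and granule lineage markers among TAMs, and over all tested genes it exceeded the mean of the other TAM libraries by a median of 1.29 times.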

How the results depend on the processing

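The 3 higher genes on TPM became 6 with TPM recomputed over coding genes alone, 8 on rescaled TPM and 10 in the authors' deposited table, and 2 to 5 when 1 library was left out. The 25 lower genes became 15 on rescaled TPM and 14 with at least 5 TPM required in 3 libraries, where 25 of the 60 genes were tested, and 11 to 24 without 1 library (19 to 28 with the filter at 2 libraries, added after seeing the data). On rescaled TPM the 8 higher genes were 6 to 9 and the 15 lower ones 6 to 16 without 1 library (6 to 10 and 12 to 20 with that filter). No filter and a pseudocount of 0.1 left the counts within 1.5 times of these. With the replicate number as a block 2 genes were higher and 25 lower on TPM, and 8 higher and 13 lower on rescaled TPM. Same-numbered libraries share only a number: their deviations correlated across genes at 0.150, 0.0139 and -0.0507 for numbers 1, 2 and 3, and not every library correlated best with its own number.

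Signs turned for some genes. On rescaled TPM they did for Slc38a10 (0.68, called), Slc38a6 (0.15), Slc38a7 (0.20), Slc7a6 (0.19), Slc6a6 (0.28) and Slc7a8 (0.50), the last 2 called on neither scale. In the authors' deposited table they did for Slc38a1 (0.099), Slc38a10 (0.81), Slc38a6 (0.26), Slc38a7 (0.305), Slc6a6 (0.37), Slc7a6 (0.32), Slc7a6os (0.072) and Slc7a8 (0.62), with Slc38a10 and Slc7a8 called there. Of 1050 other fits of the 37 genes 936 kept their sign and their side of the threshold, 62 lost a call and 27 gained one with the same sign, 11 had the other sign with a call in at least 1 of the fits compared, and 14 had the other sign with a call in neither. TPM holds no depth, so what depth limits could not be measured.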

Other observations

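Slc36a3, an SLC36 gene 6762 bases from Slc36a2, was listed at 0 in all 3 microglia libraries and at 0.201, 0.251, 0.0818, 0.0316 and 0.0728 TPM in TAMs. The antisense gene Slc36a3os, which overlaps it by 3150 bases, was likewise at 0 in microglia and at 1.73, 3.12, 0.824, 1.22 and 0.351 TPM in TAMs. The strandedness of the libraries is not given, so reads of the pair cannot be told apart. In the authors' deposited table of the DESeq2 comparison Slc36a3 was higher in TAMs (4.14 on the log2 scale, adjusted p = 0.00135).

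Of the 23 genes too low to test here, the authors' deposited table called 3 higher and 4 lower. Over all genes with a p-value it called 17.6% higher and 16% lower, and over the genes tested here 29% and 20.2%. The share over genes too low to test was not computed. Higher were Slc36a3, the neutral amino acid carrier Slc6a15 (2.65 on the log2 scale, adjusted p = 0.00349), at 1.33 TPM in TAM replicate 5 and at most 0.308 TPM elsewhere, and Slc6a19 (2.34, adjusted p = 0.0276), at no more than 0.165 TPM. Lower were Slc7a10, Slc7a14, Slc6a20b and Slc6a7. These genes were chosen after their values were seen.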
